A study of Mus musculus with 16 samples.

Results

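The 35 genes described here encode enzymes of glycolysis and of the tricarboxylic acid cycle. They were chosen by symbol and make up 35 of the 56832 genes in a table of mouse liver RNA values. They are 17 genes of glycolysis and fructose breakdown and 18 genes of the pyruvate dehydrogenase complex and the cycle, and 35 of 35 passed the filter on low values. Liver mRNA was sequenced from 16 adult mice, 4 of each of 4 genotypes labelled WT, Gclc KO, Nrf2 KO and DKO (the knockouts are called Gclc L-KO, L-DKO and Nrf2 L-KO here), to ask how liver gene expression changes when glutathione synthesis, the transcription factor NRF2 or both are removed. The mice carried loxP-flanked *Gclc* (Gclc L-KO), loxP-flanked *Nrf2* (Nrf2 L-KO) or both (L-DKO), while the study describes its WT mice of this model as carrying at most 1 loxP-flanked *Gclc* allele. Mice of all 4 genotypes, WT included, received AAV-TBG-Cre through the tail vein, and livers were collected 3 weeks later. The TBG promoter drives Cre in hepatocytes, so the other cells of these livers kept their genes, and the RNA came from whole tissue.

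Glycolysis splits glucose into pyruvate in the cytosol, and lactate dehydrogenase interconverts pyruvate and lactate. In mitochondria the pyruvate dehydrogenase complex turns pyruvate into acetyl-CoA, which the cycle oxidises to carbon dioxide while it reduces NAD+ and FAD. Liver runs glycolysis and gluconeogenesis by turns. Its hepatocytes are known for isoforms of their own, such as the liver pyruvate kinase *Pklr*, whereas *Hk1*, *Hk2*, *Pfkp*, *Aldoa*, *Pkm* and *Ldhb* are known mainly from other tissues and cell types. In such bulk tissue, fewer cells of a type and less RNA per cell cannot be told apart.

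Because the study targets NRF2, promoter windows from 250 bases before to 50 bases after the annotated start (RefSeq, GRCm38.p6) were searched on both strands for the core of the antioxidant response element, TGACNNNGC, to which NRF2 binds with a small MAF partner, and for ACGTG, the core of the hypoxia response element, which also lies inside the E-box CACGTG. Entries were found for 34 of the 35 genes. TGACNNNGC occurred in 2 of 17 glycolysis genes (11.8%) and 5 of 17 pyruvate dehydrogenase and cycle genes (29.4%), against 14% of all 27025 genes with a window. ACGTG occurred in 11 of 17 (64.7%) and 4 of 17 (23.5%), against 21.8% of all genes. These are matches of letters and not tested sites. Of the genes whose RNA differed between genotypes below, 5 held TGACNNNGC, and they are shown with the match in capitals (in its reverse complement where it lies on the other strand), in stretches of 60 bases along the gene's strand.
Aldoa chr7:126799435-126799494 (minus strand, GRCm38.p6): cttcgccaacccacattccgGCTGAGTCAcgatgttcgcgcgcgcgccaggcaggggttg
Dlst chr12:85110681-85110740 (plus strand, GRCm38.p6): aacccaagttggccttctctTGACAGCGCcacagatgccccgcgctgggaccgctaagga
Pdhb chr14:8172961-8173020 (minus strand, GRCm38.p6): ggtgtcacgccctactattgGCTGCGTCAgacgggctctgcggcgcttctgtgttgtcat
Mdh1 chr11:21571890-21571949 (minus strand, GRCm38.p6): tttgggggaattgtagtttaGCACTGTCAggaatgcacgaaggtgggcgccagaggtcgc
Idh3g chrX:73787076-73787135 (minus strand, GRCm38.p6): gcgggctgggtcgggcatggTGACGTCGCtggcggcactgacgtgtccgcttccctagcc
Idh3g chrX:73786937-73786996 (minus strand, GRCm38.p6): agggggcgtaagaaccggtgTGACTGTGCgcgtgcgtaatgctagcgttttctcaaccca
The next stretches show ACGTG matches in capitals (CACGT on the opposite strand) in *Khk* and *Ldha*, examples of the glycolysis genes that differed between genotypes, where both readings overlap in CACGTG.
Khk chr5:30921468-30921527 (plus strand, GRCm38.p6): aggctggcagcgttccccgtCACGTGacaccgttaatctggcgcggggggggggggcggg
Ldha chr7:46845639-46845698 (plus strand, GRCm38.p6): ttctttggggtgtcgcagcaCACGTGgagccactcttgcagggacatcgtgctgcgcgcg
Ldha chr7:46845736-46845795 (plus strand, GRCm38.p6): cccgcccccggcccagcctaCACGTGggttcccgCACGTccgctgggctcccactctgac

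Values are regularised log2 (rlog) values as deposited. A difference of 1 is a doubling, low genes are shrunken toward their mean, and levels of different genes are not compared because the values are not per length. *Gclc* stood at 12.96 to 13.52 in WT, 12.81 to 14.06 in the libraries labelled Gclc KO and 11.33 to 11.66 in those labelled DKO. *Nfe2l2*, which encodes NRF2, stood at 11.54 to 11.62 in WT, 11.89 to 12.55 in Nrf2 L-KO and 12.29 to 13.24 in L-DKO. So neither targeted gene had a lower mean than WT in the libraries of its single knockout. The NRF2 target *Nqo1* stood at 11.82 to 12.79 in Gclc L-KO against 8.05 to 9.16 in WT, 7.35 to 8.35 in Nrf2 L-KO and 8.18 to 8.98 in L-DKO. A value summed over a gene need not fall when some of its exons are deleted, although that of *Gclc* was lower in L-DKO than in WT. Why it was not lower in Gclc L-KO was not tested. By quantitative PCR the study reports lower *Gclc* mRNA in Gclc L-KO livers and lower *Nrf2* mRNA in Nrf2 L-KO livers. The groups are named as labelled. Defining markers of hepatocytes were present in every library. *Xist*, which is expressed from the inactive X chromosome, was high in replicates 1 and 2 of every genotype, and the Y-linked *Ddx3y* in replicates 3 and 4, so differences are also given within each of these pairs. Summed markers of skeletal muscle (6 genes, none at 0) stood at 12.85 in WT 1 (replicate 1 of WT) and 13.94 in Nrf2 L-KO 1, against 6.91 to 10.32 in the other 14 libraries, so results are also given without these 2 libraries. Summed markers of pancreas (5 genes, none at 0) ran from 10.01 to 16.71 over the 16 libraries, at 14.01 to 16.71 in Nrf2 L-KO, 10.17 and 10.25 in L-DKO 3 and 4, and 16.47 in Gclc L-KO 3, and their part in the results was not tested. Each comparison was also refitted 8 times, each time without 1 of its 8 libraries. Where a call was lost in such a refit, the libraries that it needed are named, with the range of the adjusted p over the 8 refits.

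**Figure D1:**
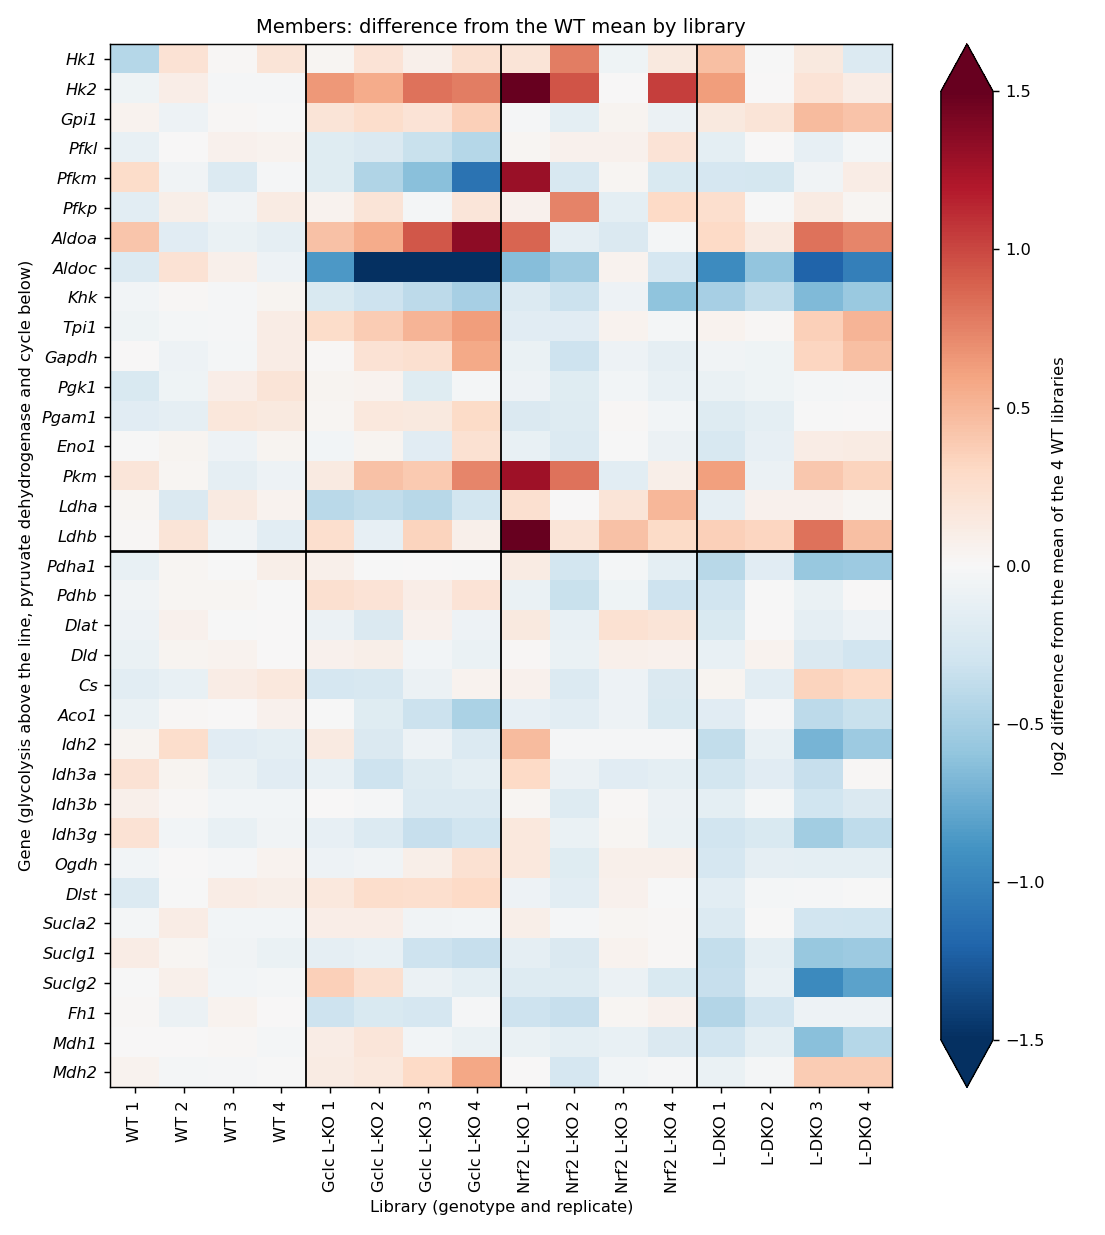
Difference of each gene (rows, glycolysis above the line) from the mean of the 4 WT libraries (log2) in each of the 16 libraries (columns), with the colour scale ending at ±1.5. *Aldoc* is low in the Gclc L-KO and L-DKO columns, most of the lower block is below 0 in L-DKO, and Nrf2 L-KO 1 stands out in *Hk2*, *Pfkm*, *Pkm* and *Ldhb*.

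In Gclc L-KO livers the glycolysis genes moved in both directions. *Aldoa*, *Tpi1* and *Gpi1* were higher than in WT, *Aldoc*, *Khk*, *Ldha* and *Pfkl* were lower, and the other 10 did not pass the test. Calls throughout are from limma with Benjamini-Hochberg adjustment over all 15128 genes tested, at an adjusted p under 0.05, and differences are given on the log2 scale with their standard error. In this comparison 23% of all genes were called, 10.6% as higher and 12.4% as lower. The median over the 17 genes was 0.13, beside 0.00 over all genes. In the same libraries 7 of 10 hepatocyte markers were lower and 4 of 10 Kupffer cell and macrophage markers were higher than in WT, with summed levels of 20.10 to 21.23 against 21.54 to 21.85 and of 13.86 to 14.36 against 13.15 to 13.55. Whether they bear on these genes was not tested.

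*Aldoc* encodes aldolase C, an aldolase best known from brain. Its values for replicates 1 to 4 were 8.53, 8.94, 8.80 and 8.65 in WT, 7.87, 7.15, 6.96 and 6.47 in Gclc L-KO, 8.09, 8.19, 8.79 and 8.47 in Nrf2 L-KO and 7.78, 8.13, 7.53 and 7.70 in L-DKO. Every Gclc L-KO library lay below every WT library, with Gclc L-KO 4 the lowest of all 16. The gene fell by 1.62 ± 0.24 (SE, adjusted p = 0.000448), to 0.326 times WT, the largest difference among the 35 genes, and the call held in 8 of 8 refits (adjusted p 3.33e-05 to 0.00253). The difference was -1.23 in replicates 1 and 2 and -2.01 in replicates 3 and 4. In L-DKO it fell by 0.94 ± 0.24 (SE, adjusted p = 0.0254), again without overlap, and this call held in 4 of 8 refits (adjusted p 0.0137 to 0.0925), lost without WT 2 or 3 and without L-DKO 3 or 4. L-DKO stood above Gclc L-KO by 0.68 ± 0.24 (SE, adjusted p = 0.094), which did not pass.

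*Aldoa*, aldolase A, is the muscle and general form of the same enzyme. It stood at 11.96, 11.38, 11.45 and 11.41 in WT, 11.99, 12.11, 12.48 and 12.89 in Gclc L-KO, 12.43, 11.42, 11.33 and 11.52 in Nrf2 L-KO and 11.85, 11.68, 12.36 and 12.29 in L-DKO. WT 1 and Nrf2 L-KO 1, the libraries with the most muscle marker RNA, were the highest of their groups, and Gclc L-KO 1 lay just above WT 1. *Aldoa* rose by 0.82 ± 0.25 (SE, adjusted p = 0.0308) in Gclc L-KO, 1.76-fold. That held in 3 of 8 refits (adjusted p 0.0184 to 0.105), lost without WT 2, 3 or 4 and without Gclc L-KO 3 or 4. Without both libraries the difference was 0.96 (adjusted p = 0.00924), and it was 0.38 in replicates 1 and 2 and 1.26 in replicates 3 and 4. In L-DKO the difference of 0.49 ± 0.25 (SE, adjusted p = 0.211) did not pass, although L-DKO 3 and L-DKO 4 lay above every WT library.

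Triose phosphate isomerase (*Tpi1*) and glucose-6-phosphate isomerase (*Gpi1*) catalyse reversible steps used in both glycolysis and gluconeogenesis. *Tpi1* stood at 13.01, 13.04, 13.06 and 13.18 in WT, 13.35, 13.45, 13.58 and 13.70 in Gclc L-KO, 12.91, 12.90, 13.12 and 13.05 in Nrf2 L-KO and 13.12, 13.09, 13.42 and 13.58 in L-DKO. All Gclc L-KO libraries exceeded all WT libraries, and in L-DKO only replicates 3 and 4 did. The rise in Gclc L-KO was 0.45 ± 0.11 (SE, adjusted p = 0.0104), 1.36-fold, and held in 8 of 8 refits (adjusted p 0.00599 to 0.0384). It was 0.38 in replicates 1 and 2 and 0.52 in replicates 3 and 4. L-DKO minus WT was 0.23 ± 0.11 (SE, adjusted p = 0.176). *Gpi1* stood at 12.29, 12.16, 12.26 and 12.23 in WT, 12.43, 12.50, 12.44 and 12.59 in Gclc L-KO, 12.22, 12.08, 12.28 and 12.15 in Nrf2 L-KO and 12.38, 12.43, 12.71 and 12.67 in L-DKO. Both Gclc L-KO and L-DKO lay above WT without overlap, and Nrf2 L-KO overlapped with WT. *Gpi1* rose by 0.25 ± 0.08 (SE, adjusted p = 0.0292) in Gclc L-KO, called in 2 of 8 refits (adjusted p 0.0281 to 0.0907), lost without WT 2, 3 or 4 and without Gclc L-KO 2, 3 or 4. In L-DKO it rose by 0.31 ± 0.08 (SE, adjusted p = 0.0239), called in 3 of 8 refits (adjusted p 0.0122 to 0.09), lost without WT 2, 3 or 4 and without L-DKO 3 or 4. Against Nrf2 L-KO, L-DKO was higher by 0.36 ± 0.08 (SE, adjusted p = 0.0193), called in 6 of 8 refits (adjusted p 0.00887 to 0.0719), lost without L-DKO 3 or 4. Without WT 1 and Nrf2 L-KO 1 these differences were 0.27 (adjusted p = 0.0562), 0.33 (adjusted p = 0.0517) and 0.38 (adjusted p = 0.05).

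Ketohexokinase (*Khk*), which phosphorylates fructose and carries liver fructose breakdown past the phosphofructokinase step, was lower in both genotypes in which *Gclc* was targeted. Its values were 12.94, 13.00, 12.98 and 13.03 in WT, 12.75, 12.68, 12.59 and 12.49 in Gclc L-KO, 12.78, 12.66, 12.91 and 12.39 in Nrf2 L-KO and 12.49, 12.62, 12.33 and 12.43 in L-DKO. No Gclc L-KO, Nrf2 L-KO or L-DKO library reached the lowest WT value. *Khk* fell by 0.36 ± 0.10 (SE, adjusted p = 0.0188) in Gclc L-KO, called in 6 of 8 refits (adjusted p 0.0136 to 0.0637), lost without Gclc L-KO 3 or 4. In L-DKO it fell by 0.52 ± 0.10 (SE, adjusted p = 0.00687), to 0.698 times WT, called in 8 of 8 refits (adjusted p 0.00372 to 0.0306). Nrf2 L-KO minus WT was -0.30 ± 0.10 (SE, adjusted p = 0.561), which did not pass. The L-DKO difference was -0.42 in replicates 1 and 2 and -0.62 in replicates 3 and 4, and -0.53 (adjusted p = 0.0215) without WT 1 and Nrf2 L-KO 1.

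*Ldha*, the lactate dehydrogenase subunit that predominates in liver, fell in Gclc L-KO, while its L-DKO values lay within those of WT. It stood at 13.89, 13.64, 14.00 and 13.91 in WT, 13.46, 13.49, 13.44 and 13.59 in Gclc L-KO, 14.10, 13.86, 14.05 and 14.35 in Nrf2 L-KO and 13.72, 13.92, 13.92 and 13.89 in L-DKO. All 4 Gclc L-KO libraries lay below every other library of the 16. *Ldha* fell by 0.37 ± 0.10 (SE, adjusted p = 0.0209) in Gclc L-KO, called in 6 of 8 refits (adjusted p 0.0117 to 0.0602), lost without WT 3 and without Gclc L-KO 3. L-DKO was higher than Gclc L-KO by 0.37 ± 0.10 (SE, adjusted p = 0.0377), and L-DKO minus WT was 0.01 ± 0.10 (SE, adjusted p = 0.982). The call against Gclc L-KO held in 1 of 8 refits (adjusted p 0.0386 to 0.108), lost without Gclc L-KO 1, 2, 3 or 4 and without L-DKO 2, 3 or 4. Without WT 1 and Nrf2 L-KO 1 the 2 differences were -0.36 (adjusted p = 0.0636) and 0.37 (adjusted p = 0.0578). *Pfkl*, the liver form of phosphofructokinase, was also lowest in Gclc L-KO. Its values were 9.74, 9.85, 9.90 and 9.89 in WT, 9.67, 9.62, 9.51 and 9.42 in Gclc L-KO, 9.88, 9.91, 9.91 and 10.05 in Nrf2 L-KO and 9.70, 9.85, 9.72 and 9.81 in L-DKO. Gclc L-KO lay below WT and below L-DKO without overlap. *Pfkl* fell by 0.29 ± 0.07 (SE, adjusted p = 0.00796) in Gclc L-KO, called in 8 of 8 refits (adjusted p 0.00419 to 0.0293), and the difference was -0.15 in replicates 1 and 2 and -0.44 in replicates 3 and 4. L-DKO minus Gclc L-KO was 0.22 ± 0.07 (SE, adjusted p = 0.0583) and did not pass.

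**Figure D2:**
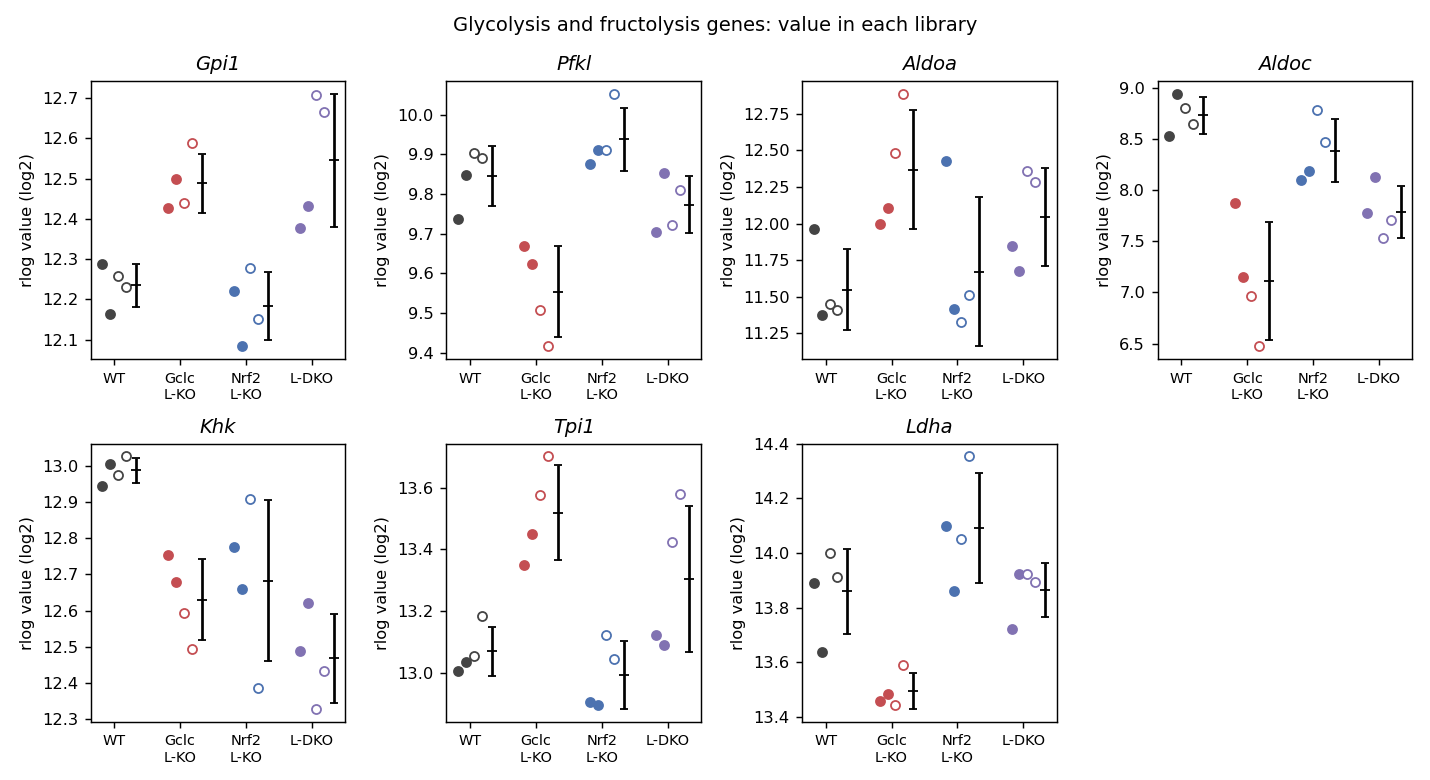
rlog value (log2, axes not starting at 0) of the 7 glycolysis and fructose genes that differed in at least 1 comparison, in each library by genotype, filled points for replicates 1 and 2, open points for replicates 3 and 4, and bars for the mean ± SD of 4. *Ldha* and *Pfkl* are lowest in Gclc L-KO, *Khk* has its lowest mean in L-DKO, and *Gpi1* and *Tpi1* are higher in Gclc L-KO and in replicates 3 and 4 of L-DKO than in any WT library.

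The remaining glycolysis genes passed in no comparison. Hexokinase 2 (*Hk2*) stood at 6.01, 6.17, 6.05 and 6.06 in WT, 6.73, 6.63, 6.89 and 6.84 in Gclc L-KO, 8.63, 7.02, 6.08 and 7.11 in Nrf2 L-KO and 6.70, 6.07, 6.28 and 6.19 in L-DKO. All 4 Gclc L-KO libraries exceeded all WT libraries, but Nrf2 L-KO 1 lay far above everything else, and the differences from WT were 0.70 ± 0.36 (SE, adjusted p = 0.169) in Gclc L-KO and 1.14 ± 0.36 (SE, adjusted p = 0.524) in Nrf2 L-KO, the latter 0.66 without Nrf2 L-KO 1. Hexokinase 1 (*Hk1*) stood at 6.58, 7.22, 7.02 and 7.20 in WT, 7.03, 7.21, 7.08 and 7.24 in Gclc L-KO, 7.20, 7.77, 6.94 and 7.15 in Nrf2 L-KO and 7.46, 6.99, 7.14 and 6.79 in L-DKO. Its groups overlapped, and Gclc L-KO minus WT was 0.14 ± 0.19 (SE, adjusted p = 0.627). *Pkm*, the pyruvate kinase of tissues other than liver and red cells, stood at 9.14, 8.99, 8.82 and 8.88 in WT, 9.09, 9.40, 9.35 and 9.70 in Gclc L-KO, 10.23, 9.77, 8.80 and 9.04 in Nrf2 L-KO and 9.57, 8.87, 9.36 and 9.29 in L-DKO. Nrf2 L-KO 1 was again the highest library, and Gclc L-KO minus WT was 0.43 ± 0.25 (SE, adjusted p = 0.231). The muscle phosphofructokinase gene *Pfkm* and the heart-type lactate dehydrogenase gene *Ldhb*, named after their values were seen, reached 10.70 and 9.10 in Nrf2 L-KO 1. In the other 15 libraries *Pfkm* lay at 8.30 to 9.69 and *Ldhb* at 5.76 to 6.74. *Pfkm* had its lowest mean in Gclc L-KO, with values of 9.23, 8.96, 8.78 and 8.30 in Gclc L-KO, but its difference from WT of -0.59 ± 0.28 (SE, adjusted p = 0.142) did not pass. *Pfkp*, *Gapdh*, *Pgk1*, *Pgam1* and *Eno1* differed from WT by -0.03 (*Pgk1*) to 0.26 (*Gapdh*) in Gclc L-KO and by -0.09 (*Pgam1*) to 0.16 (*Gapdh*) in L-DKO, none past the test. Related copies, which could share reads with *Eno1*, *Pgk1*, *Aldoa* and *Ldha*, were at or near the floor. *Eno1b* reached 0.58 at most, *Pgk2* was listed at 0, and *Aldoart1*, *Aldoart2* and *Ldhc* were below 0 in every library. Whether reads were shared or lost between copies was not tested.

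**Figure D3:**
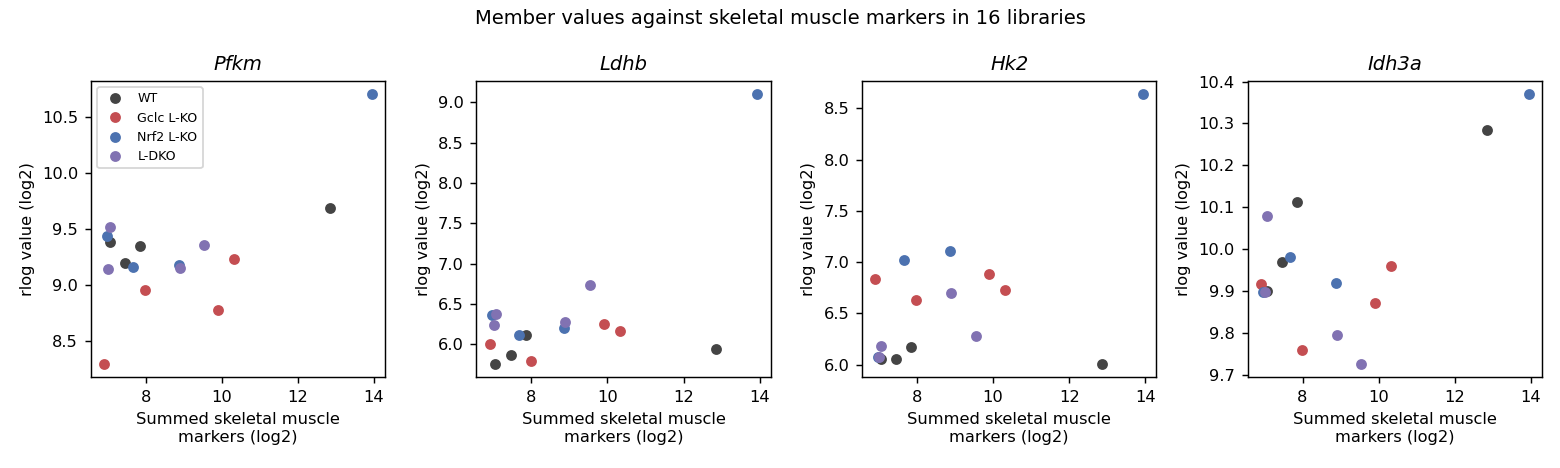
rlog values (log2) of *Pfkm*, *Ldhb*, *Hk2* and *Idh3a* in the 16 libraries, coloured by genotype, against the summed level of 6 skeletal muscle markers (log2). Nrf2 L-KO 1, at 13.94 on the horizontal axis, is the highest library in all 4 genes, and WT 1, at 12.85, is the next highest in *Pfkm* and *Idh3a* but not in *Hk2* or *Ldhb*.

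In L-DKO 3 of the 17 glycolysis genes differed from WT. *Gpi1* was higher and *Aldoc* and *Khk* were lower, with a median of 0.09, and 9.96% of all genes were called (3.79% higher, 6.17% lower). Against Gclc L-KO, *Ldha* was called as higher, where 8.64% of all genes were called (3.84% higher, 4.8% lower). Against Nrf2 L-KO, *Gpi1* was called as higher, where 5.26% of all genes were called (2.65% higher, 2.61% lower). These comparisons share libraries with each other. With the replicate number as a block, the comparison with Gclc L-KO gave 2 glycolysis genes, the other being *Pgam1* as lower (difference -0.24, adjusted p = 0.0183 in that fit).

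In L-DKO 5 of the 18 pyruvate dehydrogenase and cycle genes were lower than in WT (*Pdha1*, *Idh3g*, *Suclg1*, *Suclg2* and *Mdh1*), none was higher, and 16 of the 18 differences were negative, with a median of -0.19 beside 0.00 over all genes. That is 27.8% of the 18, against 9.96% of all genes. In Gclc L-KO against WT only *Dlst* was called, as higher, which is 5.56% of the 18 against 23% of all genes, and 9 of 18 differences were positive (median -0.04). L-DKO was lower than Gclc L-KO in 5 (*Pdha1*, *Pdhb*, *Dlst*, *Suclg2* and *Mdh1*, median -0.16, where 8.64% of all genes were called) and lower than Nrf2 L-KO in 3 (*Pdha1*, *Idh2* and *Idh3g*, median -0.18, where 5.26% were). With the replicate number as a block, the comparison with Gclc L-KO gave 6, *Sucla2* being the sixth (difference -0.22, adjusted p = 0.035 in that fit). Library by library, the median of the 18 deviations from the WT mean was -0.26, -0.11, -0.29 and -0.25 in L-DKO replicates 1 to 4, and -0.08 to 0.03 in the Gclc L-KO libraries. Nrf2 L-KO 2 stood at -0.17, with 18 of 18 genes below the WT mean, and the other Nrf2 L-KO libraries at -0.05 to 0.02. Genes of the cell cycle, 4 of 6 of which were called higher in L-DKO than in WT, had summed levels of 10.80 and 10.54 in L-DKO 3 and 4 and 8.27 to 9.55 in the other 14 libraries, and 2 of 10 hepatocyte markers were lower in L-DKO. Of the Kupffer cell and macrophage markers 2 of 10 were higher, with summed levels of 13.73 to 14.23 against 13.15 to 13.55 in WT. The part of these markers was not tested.

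*Pdha1*, the E1 alpha subunit of pyruvate dehydrogenase whose phosphorylation switches the complex off, was lower in L-DKO than in each other genotype. It stood at 11.83, 11.97, 11.93 and 12.02 in WT, 12.02, 11.93, 11.95 and 11.93 in Gclc L-KO, 12.07, 11.66, 11.91 and 11.79 in Nrf2 L-KO and 11.52, 11.77, 11.37 and 11.39 in L-DKO. Every L-DKO library lay below every WT and Gclc L-KO library, and L-DKO 2 lay above Nrf2 L-KO 2. *Pdha1* fell by 0.43 ± 0.09 (SE, adjusted p = 0.0137), to 0.744 times WT, and by 0.44 ± 0.09 (SE, adjusted p = 0.00899) against Gclc L-KO. The call against Gclc L-KO held in 8 of 8 refits (adjusted p 0.0018 to 0.0315) and that against WT in 7 of 8 refits (adjusted p 0.00242 to 0.0557), lost without L-DKO 3. Against Nrf2 L-KO the difference was -0.35 ± 0.09 (SE, adjusted p = 0.046), called in 2 of 8 refits (adjusted p 0.00741 to 0.152), lost without Nrf2 L-KO 1, 3 or 4 and without L-DKO 1, 3 or 4. Without WT 1 and Nrf2 L-KO 1 the differences from WT and Nrf2 L-KO were -0.46 (adjusted p = 0.0186) and -0.28 (adjusted p = 0.123). The difference from WT was -0.26 in replicates 1 and 2 and -0.60 in replicates 3 and 4. *Pdhb*, the E1 beta subunit, stood at 11.47, 11.56, 11.56 and 11.52 in WT, 11.77, 11.73, 11.63 and 11.73 in Gclc L-KO, 11.42, 11.19, 11.46 and 11.22 in Nrf2 L-KO and 11.24, 11.52, 11.43 and 11.53 in L-DKO. Its highest values were those of Gclc L-KO, above every library of the other genotypes. L-DKO lay below Gclc L-KO by 0.29 ± 0.08 (SE, adjusted p = 0.0308), called in 3 of 8 refits (adjusted p 0.0289 to 0.0837), lost without Gclc L-KO 1, 2 or 4 and without L-DKO 1 or 3, whereas L-DKO minus WT was -0.10 ± 0.08 (SE, adjusted p = 0.435). The E2 and E3 genes *Dlat* and *Dld* passed in no comparison, at -0.11 and -0.14 in L-DKO minus WT.

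The largest fall among the 18 genes in L-DKO against WT was in *Suclg2*, the GTP-specific beta subunit of succinyl-CoA synthetase. Its values were 12.48, 12.56, 12.45 and 12.47 in WT, 12.85, 12.74, 12.41 and 12.34 in Gclc L-KO, 12.29, 12.30, 12.40 and 12.27 in Nrf2 L-KO and 12.15, 12.38, 11.54 and 11.69 in L-DKO. L-DKO 3 and 4 were far below all other libraries, while L-DKO 1 and 2 lay below WT and L-DKO 2 overlapped with Gclc L-KO. *Suclg2* fell by 0.55 ± 0.15 (SE, adjusted p = 0.0386) against WT, to 0.682 times WT, called in 2 of 8 refits (adjusted p 0.00565 to 0.134), lost without WT 1, 2, 3 or 4 and without L-DKO 3 or 4. Against Gclc L-KO it fell by 0.64 ± 0.15 (SE, adjusted p = 0.0185), called in 5 of 8 refits (adjusted p 0.00341 to 0.0609), lost without Gclc L-KO 2 and without L-DKO 3 or 4. The difference from WT was -0.26 in replicates 1 and 2 and -0.84 in replicates 3 and 4. *Suclg2* was the only one of the 35 genes whose difference from WT in L-DKO differed between the pairs, by -0.58 (adjusted p = 0.0304, limma with a mean for each genotype and pair), in a contrast where 4.34% of all genes did. *Suclg1*, the alpha subunit shared by both forms of the enzyme, stood at 12.36, 12.28, 12.20 and 12.14 in WT, 12.11, 12.13, 11.94 and 11.90 in Gclc L-KO, 12.11, 12.03, 12.30 and 12.26 in Nrf2 L-KO and 11.88, 12.10, 11.67 and 11.70 in L-DKO. All L-DKO libraries lay below all WT libraries, and Gclc L-KO lay below WT and overlapped with L-DKO. *Suclg1* fell by 0.41 ± 0.10 (SE, adjusted p = 0.02) in L-DKO, called in 4 of 8 refits (adjusted p 0.00372 to 0.0785), lost without WT 1 or 2 and without L-DKO 3 or 4. *Sucla2*, the ATP-specific beta subunit, did not pass against WT, at -0.20 ± 0.07 (SE, adjusted p = 0.0793). Without WT 1 and Nrf2 L-KO 1, *Suclg2* and *Suclg1* in L-DKO minus WT were -0.56 (adjusted p = 0.0888) and -0.37 (adjusted p = 0.066).

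*Mdh1*, the cytosolic malate dehydrogenase of the malate-aspartate shuttle, was also lower in L-DKO. It stood at 14.13, 14.12, 14.13 and 14.09 in WT, 14.23, 14.30, 14.08 and 14.01 in Gclc L-KO, 14.02, 13.97, 14.01 and 13.90 in Nrf2 L-KO and 13.83, 13.97, 13.49 and 13.69 in L-DKO. The WT libraries lay within 0.04 of each other, every L-DKO library lay below every WT and Gclc L-KO library, and L-DKO 3 was the lowest. *Mdh1* fell by 0.37 ± 0.10 (SE, adjusted p = 0.0275) against WT, called in 2 of 8 refits (adjusted p 0.0065 to 0.0959), lost without WT 1, 2, 3 or 4 and without L-DKO 3 or 4. Against Gclc L-KO it fell by 0.41 ± 0.10 (SE, adjusted p = 0.0158), called in 7 of 8 refits (adjusted p 0.00552 to 0.0511), lost without Gclc L-KO 2. Without WT 1 and Nrf2 L-KO 1 L-DKO minus WT was -0.37 (adjusted p = 0.0714). The mitochondrial form, *Mdh2*, did not pass, at 0.29 ± 0.12 (SE, adjusted p = 0.0925) in Gclc L-KO although its libraries there lay above all WT libraries, and its L-DKO minus WT difference was -0.08 in replicates 1 and 2 and 0.39 in replicates 3 and 4, opposite in sign to *Mdh1* in the latter pair.

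The isocitrate dehydrogenases are the NAD-dependent enzyme of the cycle (alpha *Idh3a*, beta *Idh3b*, gamma *Idh3g*) and the mitochondrial NADP-dependent *Idh2*. *Idh3g* stood at 10.99, 10.73, 10.66 and 10.72 in WT, 10.66, 10.58, 10.44 and 10.48 in Gclc L-KO, 10.93, 10.68, 10.80 and 10.68 in Nrf2 L-KO and 10.49, 10.55, 10.25 and 10.40 in L-DKO. All L-DKO libraries lay below all WT and all Nrf2 L-KO libraries, and WT 1 and Nrf2 L-KO 1 were the highest of their groups. *Idh3g* fell by 0.36 ± 0.09 (SE, adjusted p = 0.0226) against WT, called in 5 of 8 refits (adjusted p 0.0121 to 0.087), lost without WT 1 and without L-DKO 3 or 4. Against Nrf2 L-KO it fell by 0.35 ± 0.09 (SE, adjusted p = 0.034), called in 4 of 8 refits (adjusted p 0.0168 to 0.119), lost without Nrf2 L-KO 1 or 3 and without L-DKO 3 or 4. Without both libraries these were -0.29 (adjusted p = 0.0528) and -0.30 (adjusted p = 0.0661). *Idh2* stood at 11.68, 11.90, 11.47 and 11.49 in WT, 11.77, 11.42, 11.56 and 11.44 in Gclc L-KO, 12.11, 11.61, 11.62 and 11.62 in Nrf2 L-KO and 11.26, 11.52, 10.94 and 11.09 in L-DKO. Nrf2 L-KO 1 stood apart within its group, and L-DKO 3 and 4 were the lowest. L-DKO was lower than Nrf2 L-KO by 0.53 ± 0.14 (SE, adjusted p = 0.0451), called in 1 of 8 refits (adjusted p 0.0132 to 0.152), lost without Nrf2 L-KO 1, 2, 3 or 4 and without L-DKO 1, 3 or 4. Without both libraries the difference was -0.41 (adjusted p = 0.13), and L-DKO minus WT was -0.43 ± 0.14 (SE, adjusted p = 0.0686). *Idh3a* stood at 10.29, 10.11, 9.97 and 9.90 in WT, 9.96, 9.76, 9.87 and 9.92 in Gclc L-KO, 10.37, 9.98, 9.90 and 9.92 in Nrf2 L-KO and 9.80, 9.90, 9.73 and 10.08 in L-DKO. WT 1 and Nrf2 L-KO 1 were its highest libraries, the groups overlapped, and L-DKO minus WT was -0.19 ± 0.11 (SE, adjusted p = 0.276). *Idh3b* differed by -0.17 ± 0.07 (SE, adjusted p = 0.145).

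**Figure D4:**
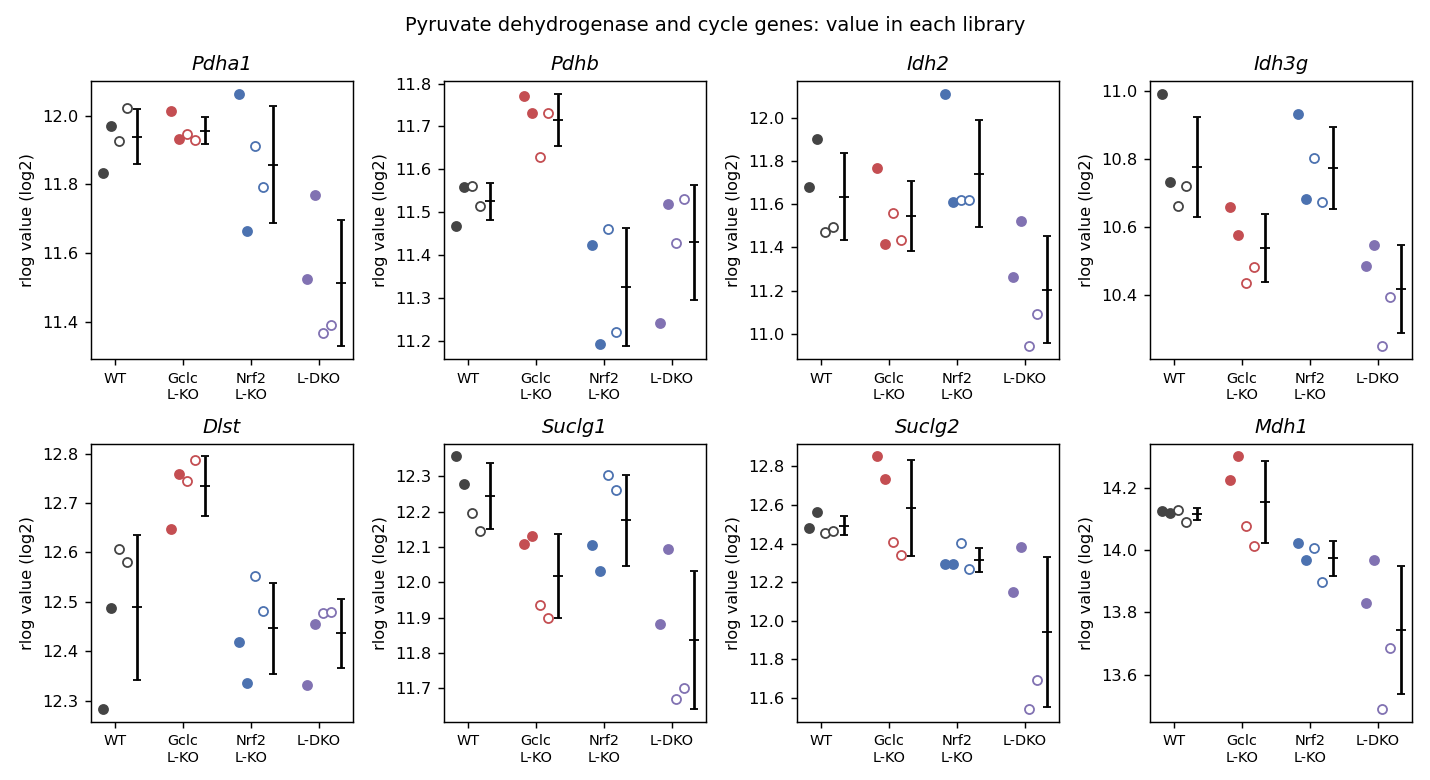
rlog value (log2, axes not starting at 0) of the 8 pyruvate dehydrogenase and cycle genes that differed in at least 1 comparison, in each library by genotype, filled points for replicates 1 and 2, open points for replicates 3 and 4, and bars for the mean ± SD of 4. The L-DKO points of *Pdha1*, *Suclg1*, *Suclg2*, *Idh3g* and *Mdh1* lie below all WT points, with replicates 3 and 4 the lowest.

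*Dlst*, the E2 subunit of the 2-oxoglutarate dehydrogenase complex, was the cycle gene called in Gclc L-KO. It stood at 12.28, 12.49, 12.61 and 12.58 in WT, 12.65, 12.76, 12.74 and 12.79 in Gclc L-KO, 12.42, 12.34, 12.55 and 12.48 in Nrf2 L-KO and 12.33, 12.46, 12.48 and 12.48 in L-DKO. Gclc L-KO lay above every library of the other genotypes. *Dlst* rose by 0.25 ± 0.07 (SE, adjusted p = 0.0297) against WT, called in 3 of 8 refits (adjusted p 0.0225 to 0.0849), lost without WT 1 or 2 and without Gclc L-KO 2, 3 or 4, and was 0.18 (adjusted p = 0.106) without WT 1 and Nrf2 L-KO 1. L-DKO lay below Gclc L-KO by 0.30 ± 0.07 (SE, adjusted p = 0.0232), called in 4 of 8 refits (adjusted p 0.0203 to 0.068), lost without Gclc L-KO 2, 3 or 4 and without L-DKO 1. *Ogdh*, the E1 subunit of the same complex, stood at 12.69, 12.74, 12.72 and 12.79 in WT, 12.66, 12.69, 12.83 and 12.96 in Gclc L-KO, 12.90, 12.55, 12.81 and 12.81 in Nrf2 L-KO and 12.48, 12.60, 12.58 and 12.59 in L-DKO. L-DKO lay below WT and Gclc L-KO without overlap, but the differences of -0.17 ± 0.08 (SE, adjusted p = 0.176) and -0.22 ± 0.08 (SE, adjusted p = 0.11) did not pass. Citrate synthase (*Cs*) stood at 12.17, 12.21, 12.44 and 12.48 in WT, 12.07, 12.09, 12.24 and 12.38 in Gclc L-KO, 12.39, 12.12, 12.25 and 12.11 in Nrf2 L-KO and 12.37, 12.17, 12.66 and 12.63 in L-DKO. L-DKO 3 and 4 were its highest libraries, and L-DKO minus WT was 0.13 ± 0.12 (SE, adjusted p = 0.487). Aconitase 1 (*Aco1*), the cytosolic enzyme that doubles as an iron regulatory protein, and fumarase (*Fh1*) stood at -0.23 and -0.22 in L-DKO minus WT, neither past the test.

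**Figure D5:**
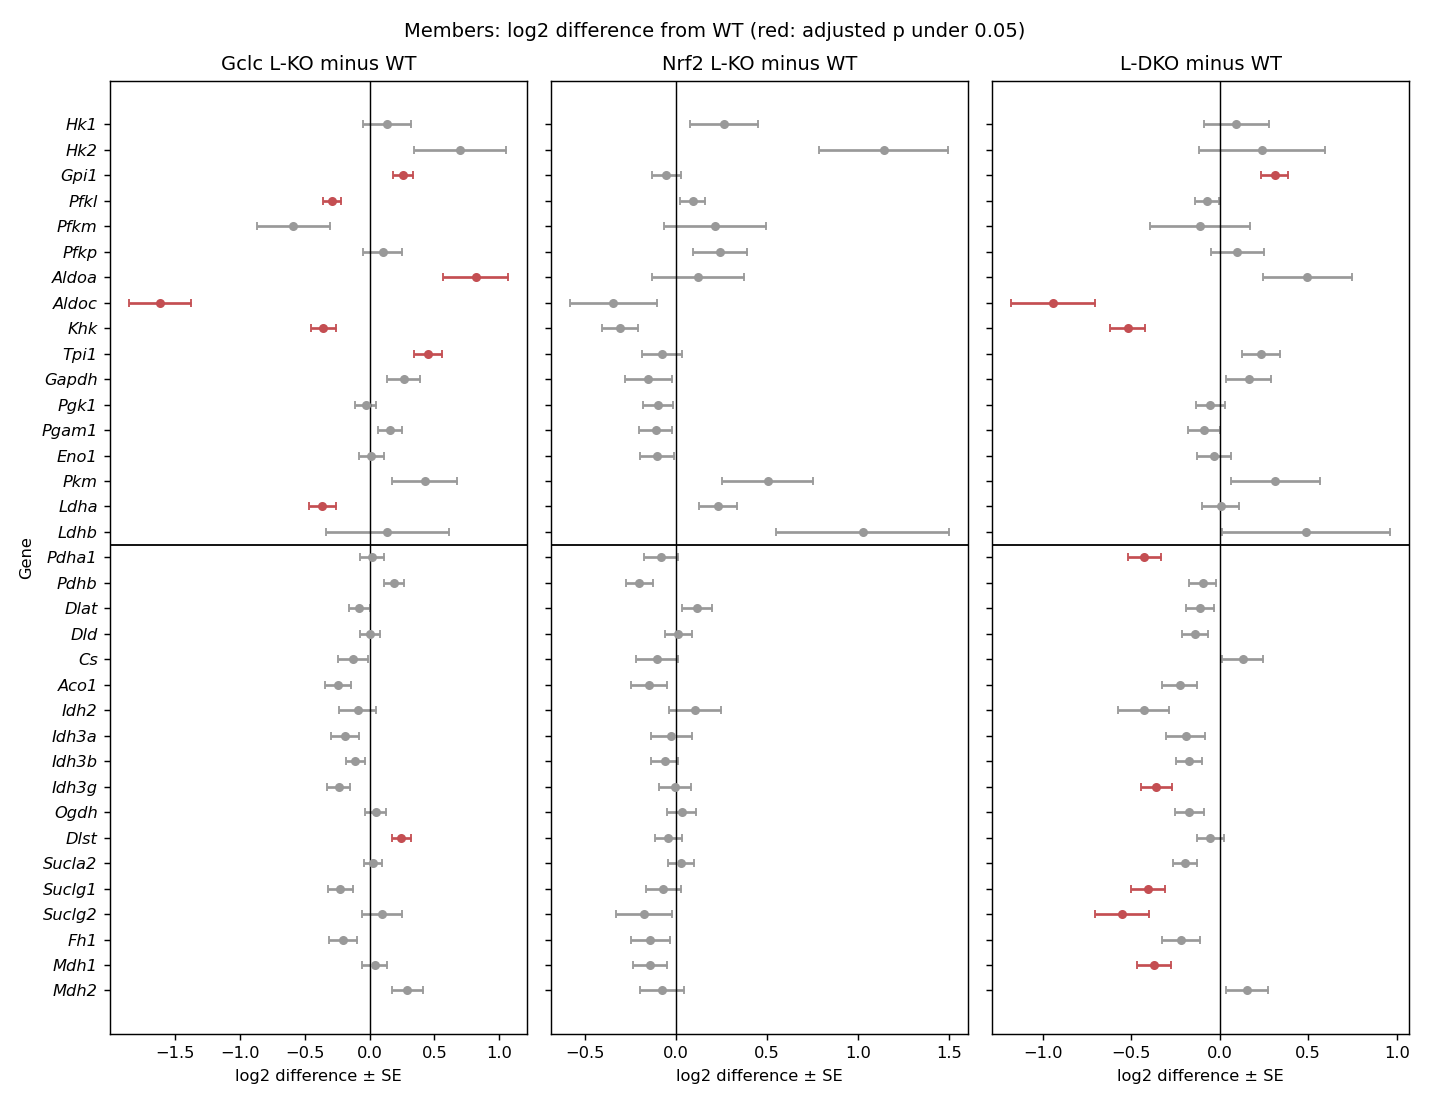
log2 difference from WT ± SE of the 35 genes (glycolysis above the line) in each of the other 3 genotypes, with red points for an adjusted p under 0.05 and horizontal scales that differ between panels. Red points number 8 in Gclc L-KO, 0 in Nrf2 L-KO and 8 in L-DKO.

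In Nrf2 L-KO none of the 35 genes was called against WT by limma, where 0.139% of all genes were (0.0132% higher, 0.126% lower). At an unadjusted p under 0.05 there were 4 glycolysis genes (*Hk2*, *Khk*, *Ldha* and *Ldhb*) and 1 cycle gene (*Pdhb*), and 1046 of the 15128 genes in all. Whether the effect of targeting *Gclc* differed with and without NRF2 was tested as an interaction, in which the change from Nrf2 L-KO to L-DKO was set against the change from WT to Gclc L-KO. None of the 35 passed, where 0.687% of all genes did (0.225% higher, 0.463% lower), and at an unadjusted p under 0.05 there were 2 glycolysis and 7 cycle genes, and 2239 of the 15128 genes in all. The largest were *Hk2* at -1.60 ± 0.50 (SE, adjusted p = 0.182) and *Aldoc* at 1.02 ± 0.34 (SE, adjusted p = 0.195), and among the cycle genes *Suclg2* at -0.47 ± 0.22 (SE, adjusted p = 0.336) and *Idh2* at -0.44 ± 0.20 (SE, adjusted p = 0.325). So a gene called in Gclc L-KO and not in L-DKO was not shown to respond differently.

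The pairs of replicates were compared for the genes called. All 8 calls in L-DKO minus WT lay farther from 0 in replicates 3 and 4, and 7 of the 8 in Gclc L-KO minus WT did. Their sign was the same in both pairs, which was fixed in advance because the groups of these calls did not overlap. Tested on replicates 3 and 4 only, 7 glycolysis and 10 cycle genes differed between L-DKO and WT, and 3362 genes in all. Beside the 8 genes above these were *Aldoa* (0.89, adjusted p = 0.00358), *Tpi1*, *Pkm*, *Ldhb* and *Mdh2* (0.39, adjusted p = 0.0266) as higher and *Dld*, *Aco1*, *Idh2* (-0.46, adjusted p = 0.00748) and *Sucla2* as lower. On replicates 1 and 2 only, none of the 35 did, and 123 genes in all. In Gclc L-KO minus WT the counts on replicates 1 and 2 only were 2 (*Aldoc* and *Tpi1*) and 0, and 849 genes in all. The libraries WT 1 and Nrf2 L-KO 1 both belong to the pair of replicates 1 and 2. Leaving them out kept 13 of the 26 calls over all comparisons, with 1 of 18 cycle genes in L-DKO minus WT in place of 5 (*Pdha1*), 5 in L-DKO minus Gclc L-KO, which uses neither library, and 0 in L-DKO minus Nrf2 L-KO in place of 3. Over all genes the calls in L-DKO minus WT went from 1506 to 723 with these fewer libraries, and those in L-DKO minus Nrf2 L-KO from 796 to 283.

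Other genes of these pathways were taken from 4 lists. Of 19 tested genes of other glycolytic enzymes, isoforms and regulators, the comparison of Gclc L-KO with WT called 1 higher and 4 lower, and that of L-DKO with WT called 1 lower. Against Gclc L-KO, 1 was higher and 2 were lower in L-DKO, and none passed in Nrf2 L-KO against WT or in L-DKO against Nrf2 L-KO. The calls make 26.3%, 5.26% and 15.8% of the 19, beside 23%, 9.96% and 8.64% of all genes in the same comparisons. In the comparisons without a call, 0.139% and 5.26% of all genes were called. Liver pyruvate kinase (*Pklr*) fell by 0.68 ± 0.17 (SE, adjusted p = 0.0117) in Gclc L-KO, called in 8 of 8 refits (adjusted p 0.00714 to 0.0422). *Pfkfb1*, the liver enzyme that makes and removes fructose 2,6-bisphosphate, fell by 0.68 ± 0.20 (SE, adjusted p = 0.0235), called in 5 of 8 refits (adjusted p 0.00944 to 0.0838), lost without WT 4 and without Gclc L-KO 3 or 4. Phosphoglucomutase 1 (*Pgm1*), which links glucose-6-phosphate with glycogen, fell from Gclc L-KO to L-DKO by 0.66 ± 0.11 (SE, adjusted p = 0.00198), called in 8 of 8 refits (adjusted p 7.95e-05 to 0.00929). Of the 12 carriers of glucose, lactate and pyruvate, 1 was higher and 1 lower in Gclc L-KO against WT, and 1 was lower in L-DKO against each of WT and Gclc L-KO. Their shares of 16.7%, 8.33% and 8.33% were below the 23%, 9.96% and 8.64% over all genes. The widely expressed glucose carrier *Slc2a1* rose by 0.71 ± 0.18 (SE, adjusted p = 0.0126) in Gclc L-KO, called in 8 of 8 refits (adjusted p 0.00575 to 0.0468). *Slc2a2*, the hepatocyte glucose carrier, fell by 0.91 ± 0.29 (SE, adjusted p = 0.0342), called in 3 of 8 refits (adjusted p 0.00535 to 0.108), lost without WT 1, 2 or 3 and without Gclc L-KO 3 or 4. *Slc2a9*, which also carries urate, fell in L-DKO by 0.64 ± 0.19 (SE, adjusted p = 0.0477), called in 1 of 8 refits (adjusted p 0.0128 to 0.165), lost without WT 1, 2, 3 or 4 and without L-DKO 1, 3 or 4. *Pklr* and *Slc2a1* in Gclc L-KO stayed called without WT 1 and Nrf2 L-KO 1 (limma, adjusted p = 0.0322 for each). The calls against WT of *Pfkfb1* (adjusted p = 0.0539), *Slc2a2* (adjusted p = 0.0894) and *Slc2a9* (adjusted p = 0.111) were lost there.

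Of the 8 kinases, phosphatases and the binding protein of the pyruvate dehydrogenase complex, 2 were called higher and 1 lower in Gclc L-KO against WT, 1 higher and 2 lower in L-DKO against WT, and 2 lower in L-DKO against Gclc L-KO. These calls make 37.5%, 37.5% and 25% of the 8, beside 23%, 9.96% and 8.64% of all genes. *Pdp1*, a phosphatase that reactivates the complex, ranged from 5.55 to 5.75 in WT, 6.24 to 6.97 in Gclc L-KO, 5.51 to 6.38 in Nrf2 L-KO and 6.08 to 6.64 in L-DKO. Both genotypes in which *Gclc* was targeted lay above WT without overlap. *Pdp1* rose by 0.90 ± 0.20 (SE, adjusted p = 0.00557) in Gclc L-KO, called in 8 of 8 refits (adjusted p 0.00326 to 0.0211), and by 0.74 ± 0.20 (SE, adjusted p = 0.0311) in L-DKO, called in 2 of 8 refits (adjusted p 0.0149 to 0.11), lost without WT 1, 2, 3 or 4 and without L-DKO 3 or 4. The kinases *Pdk1* and *Pdk2*, which switch the complex off, fell in L-DKO by 0.80 ± 0.22 (SE, adjusted p = 0.0371) and 0.54 ± 0.12 (SE, adjusted p = 0.0155). *Pdk1* was called in 2 of 8 refits (adjusted p 0.00849 to 0.132), lost without WT 1, 2, 3 or 4 and without L-DKO 3 or 4, and *Pdk2* in 6 of 8 refits (adjusted p 0.00151 to 0.0619), lost without L-DKO 3 or 4. *Pdp2*, the other phosphatase, fell in Gclc L-KO by 0.49 ± 0.14 (SE, adjusted p = 0.0249), called in 3 of 8 refits (adjusted p 0.0152 to 0.0869), lost without WT 1, 2 or 4 and without Gclc L-KO 3 or 4. *Pdp1* in Gclc L-KO (limma, adjusted p = 0.015) and *Pdk2* in L-DKO (adjusted p = 0.0478) stayed called without WT 1 and Nrf2 L-KO 1. The calls of *Pdp1* in L-DKO (adjusted p = 0.0624), *Pdk1* in L-DKO (adjusted p = 0.0795) and *Pdp2* in Gclc L-KO (adjusted p = 0.0772) were lost there.

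Of 24 tested genes of other cycle enzymes and of enzymes that feed or drain the cycle, 3 were called higher and 6 lower in Gclc L-KO against WT, 1 lower in Nrf2 L-KO, and 9 lower in L-DKO against WT, with a median of -0.34 there beside 0.00 over all genes. Against Gclc L-KO 2 were higher and 5 lower in L-DKO, and against Nrf2 L-KO 1 was higher and 3 lower. *Pck1*, which draws oxaloacetate off the cycle into gluconeogenesis, stood at 15.88, 15.20, 14.94 and 15.14 in WT, 13.49, 14.00, 13.32 and 13.92 in Gclc L-KO, 15.82, 15.58, 14.84 and 15.43 in Nrf2 L-KO and 14.86, 15.25, 14.79 and 14.29 in L-DKO. Gclc L-KO lay below every other library. *Pck1* fell by 1.61 ± 0.26 (SE, adjusted p = 0.000833), to 0.328 times WT, called in 8 of 8 refits (adjusted p 0.00157 to 0.00458), and L-DKO exceeded Gclc L-KO by 1.11 ± 0.26 (SE, adjusted p = 0.0153), called in 7 of 8 refits (adjusted p 0.011 to 0.0584), lost without Gclc L-KO 3. Pyruvate carboxylase (*Pcx*), which refills the cycle with oxaloacetate, stood at 13.69, 13.77, 13.75 and 13.82 in WT, 13.96, 13.91, 13.80 and 13.71 in Gclc L-KO, 13.60, 13.52, 13.55 and 13.32 in Nrf2 L-KO and 13.14, 13.43, 12.58 and 12.58 in L-DKO. L-DKO lay below WT and Gclc L-KO without overlap, and L-DKO 3 and 4 were the lowest. *Pcx* fell in L-DKO by 0.82 ± 0.15 (SE, adjusted p = 0.00663) against WT, called in 8 of 8 refits (adjusted p 0.000968 to 0.0261), and by 0.91 ± 0.15 (SE, adjusted p = 0.00214) against Gclc L-KO, called in 8 of 8 refits (adjusted p 0.000153 to 0.00846). ATP citrate lyase (*Acly*), which splits exported citrate for fatty acid synthesis, fell by 1.19 ± 0.21 (SE, adjusted p = 0.00161) in Gclc L-KO, called in 8 of 8 refits (adjusted p 0.000408 to 0.00735). *Acly* was also called lower in L-DKO than in WT, by 0.73. That call held in 3 of 8 refits (adjusted p 0.0125 to 0.135), lost without WT 2, 3 or 4 and without L-DKO 3 or 4. Glutamine synthetase (*Glul*) fell by 1.29 ± 0.40 (SE, adjusted p = 0.0303) in Gclc L-KO, called in 1 of 8 refits (adjusted p 0.0107 to 0.0966), lost without WT 1, 2, 3 or 4 and without Gclc L-KO 2, 3 or 4. The *Glul* mean was 13.68 in L-DKO, 13.67 in Gclc L-KO and 14.96 in WT, although L-DKO minus WT was not called. The *Glul* call in Gclc L-KO was lost without WT 1 and Nrf2 L-KO 1 (limma, adjusted p = 0.0739). Those against WT of *Pck1* and *Acly* in Gclc L-KO (adjusted p = 0.00311 and 0.000842) and of *Pcx* and *Acly* in L-DKO (adjusted p = 0.0215 and 0.0189) stayed.

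The succinate dehydrogenase subunits *Sdha* and *Sdhb* are cycle enzymes outside the 35 and were named after their values were seen. *Sdha* stood at 13.70, 13.93, 13.95 and 14.00 in WT, 13.82, 13.64, 13.60 and 13.49 in Gclc L-KO, 13.86, 13.72, 13.92 and 13.82 in Nrf2 L-KO and 13.47, 13.66, 13.24 and 13.23 in L-DKO. L-DKO lay below WT without overlap. *Sdha* fell by 0.50 ± 0.11 (SE, adjusted p = 0.0119) in L-DKO, called in 8 of 8 refits (adjusted p 0.00287 to 0.0499), and *Sdhb* by 0.43 ± 0.07 (SE, adjusted p = 0.00386), called in 8 of 8 refits (adjusted p 0.00135 to 0.0175). Both stayed called without WT 1 and Nrf2 L-KO 1 (limma, adjusted p = 0.019 for *Sdha* and 0.0189 for *Sdhb*).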

How the data were processed

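Liver mRNA of 16 mice was sequenced from a stranded poly(A) library kit. Per the submitters' processing notes, reads were demultiplexed with bcl2fastq 2.20.0, and fastp, STAR 2.7.9a, Subread 2.0.1 and DESeq2 1.34.0 were used with the GRCm39 build. The authors deposited regularised log2 values (rlog) of 56832 genes, which shrink low genes toward their mean across libraries. No counts were used here, so depth is unknown and no counting interval can be given. Library medians over the tested genes ran from 8.33 to 8.38, and values from -2.27 to 21.59. The 26656 genes listed at 0 in every library were not tested, and 15128 genes with a mean of at least 3 were.

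Libraries were mapped to genotypes by their titles. Differences were fitted with limma 3.58.1 in R 4.3.3 (1 mean per genotype over all 16 libraries, lmFit, eBayes with trend, two-sided), and p-values were adjusted by the Benjamini-Hochberg method over all tested genes within each comparison, with a threshold of 0.05. They measure the spread between these mice. The script was tested on simulated data. Summed marker levels are the log2 of the sum of the markers' unlogged values.

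The members and lists were chosen with earlier results of these data known. All 35 genes could be named. Values in every library were given for the genes called in any comparison and for *Hk1*, *Hk2*, *Pkm*, *Cs*, *Idh3a* and *Ogdh*, and from each pathway list the 4 called genes with the largest difference, or all where fewer were called, were named, together with others named as chosen later. Some genes of these lists are not reported here. The labels give no pairing of libraries by replicate number. Same-number correlations of deviations from the group means all exceeded 0.1 in Nrf2 L-KO with WT (0.258 to 0.555) and L-DKO with Gclc L-KO (0.209 to 0.38). Even there some libraries matched another number best, always within replicates 1 and 2 or within replicates 3 and 4.

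Alternatives were a replicate block, a term for the pair of replicates, array weights, quantile normalization, centring on the median, no trend, no filter, only the compared groups, each pair of replicates alone and leaving out each library. Leaving out the pair of libraries with the highest muscle markers was chosen after seeing the data. Promoter windows were read from RefSeq tables of GRCm38.p6, a build other than that of the reads, with Python 3.11.15 and pandas 2.3.3, and figures were drawn with matplotlib 3.10.9.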

Additional observations from a re-analysis of the deposited data

Results flagged for a closer look

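Within the 140 groups of 4 libraries (35 genes in 4 genotypes), 9 held a library that stood apart from the other 3 by Dixon's criterion, where chance gives about 1 in 20 groups. *Aldoa* stood at 11.96 in WT 1 and at 12.43 in Nrf2 L-KO 1, the libraries with the highest summed skeletal muscle markers (12.85 and 13.94). *Ldhb* at 9.10 and *Idh2* at 12.11 also stood apart in Nrf2 L-KO 1. L-DKO 1 lay below the rest of its genotype in *Ldha* (13.72), *Ogdh* (12.48) and *Dlst* (12.33). *Sucla2* stood above the rest of WT in WT 2 (11.94) and *Mdh2* below the rest of Nrf2 L-KO in Nrf2 L-KO 2 (12.05).

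The difference of *Suclg2* between L-DKO and WT differed between the pairs of replicates. It was -0.26 in replicates 1 and 2 and -0.84 in replicates 3 and 4, with a difference of -0.58 (limma, adjusted p = 0.0304).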

How the results depend on the processing

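No difference changed sign under any alternative among the 26 calls. For the 24 whose groups did not overlap, the sign could not change in fits that leave libraries out. Of the 26 calls, 26 stayed past the threshold with the replicate block, 26 with the term for replicates 1 and 2 against 3 and 4, 25 with median centring, 24 without the trend, 23 with array weights, 22 on replicates 3 and 4 only, 17 without the filter, 17 with quantile normalization, 13 without WT 1 and Nrf2 L-KO 1, 12 in fits of the compared groups alone and 2 on replicates 1 and 2 only. Counts are given below as glycolysis genes, then cycle genes, and the cause of each change was not tested beyond the fewer libraries in the fits that leave libraries out.

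In Gclc L-KO against WT (7 and 1 called) the cycle count was 0 without the filter, 3 with quantile normalization, 3 with array weights, 3 with the replicate block, 5 with the pair term, 3 on replicates 3 and 4 only and 0 without WT 1 and Nrf2 L-KO 1, and replicates 1 and 2 only gave 2 and 0. In L-DKO against WT (3 and 5) replicates 1 and 2 only gave 0 and 0, replicates 3 and 4 only gave 7 and 10, and the cycle count was 2 with quantile normalization, 8 with the pair term, 1 with only the groups compared and 1 without WT 1 and Nrf2 L-KO 1. Between L-DKO and Gclc L-KO (1 and 5) the glycolysis count was 0 without the filter, 0 with array weights, 2 with the replicate block, 3 with the pair term and 0 without WT 1 and Nrf2 L-KO 1, the cycle count was 3 with quantile normalization and 1 with only the groups compared, and the pairs gave 0 and 0 on replicates 1 and 2 only and 2 and 8 on replicates 3 and 4 only. In L-DKO against Nrf2 L-KO (1 and 3) the counts were 2 and 5 with the replicate block, 3 and 5 with the pair term, 0 and 0 on replicates 1 and 2 only, 0 and 0 in the fit of the compared groups alone, 5 and 11 on replicates 3 and 4 only and 0 and 0 without WT 1 and Nrf2 L-KO 1, and the cycle count was 0 without the filter and 1 with each of no trend, quantile normalization and array weights. The interaction (0 and 0) gave 3 cycle genes on replicates 3 and 4 only. Over all 15128 genes, the comparisons above in that order had 3481, 1506, 1307, 796 and 104 calls in the main fit. Replicates 3 and 4 only gave 4172, 3362, 2180, 2755 and 488. Replicates 1 and 2 only gave 849, 123, 245, 17 and 12. The pair term gave 4568, 2819, 2018, 2035 and 211. Without WT 1 and Nrf2 L-KO 1 there were 2202, 723, 1264, 283 and 33.

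With 1 library left out, the glycolysis and cycle counts ran from 3 to 7 and 0 to 3 in Gclc L-KO against WT, 1 to 3 and 0 to 7 in L-DKO against WT, 0 to 2 and 1 to 6 between L-DKO and Gclc L-KO, 0 to 2 and 0 to 7 in L-DKO against Nrf2 L-KO, and 0 to 1 and 0 to 0 in the interaction. Libraries with the same replicate number were not shown to be pairs. In Nrf2 L-KO against WT the replicate block gave 0 and 0, as the fit without it did. Without counts, depth sets no limit that can be computed, and rlog shrinkage understates differences of low genes.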
